A study of Caenorhabditis elegans with 12 samples.

Results

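Genes of methionine, cysteine and H2S synthesis were examined in *C. elegans*. They were 10 genes taken by name from the methionine cycle, transsulfuration and H2S synthesis. Of these, 9 were among the 5272 genes of the files with values per library, and *metr-1* was not analysed here. RNAseq was carried out on whole nematodes at day 6, with 3 groups of 4 libraries, each from its own pool of many animals. The first group was FW1256-exposed WT, strain N2 kept with 500 µM of FW1256, a compound that slowly releases H2S, from the L1 larval stage onwards. The second was strain DA1116, which carries a mutation in *eat-2* and was not exposed to FW1256. In *eat-2* mutants the pharynx pumps slowly and food intake is low throughout life, and they served as a genetic model of caloric restriction (CR). The third was unexposed WT (N2). All were fed *Escherichia coli* OP50-1. The authors report that exposure to FW1256 and the *eat-2* mutation each slowed development and moved the peak of egg laying to a later day. Animals of the same age may thus have differed in stage between the groups. Stage cannot be told apart from exposure or mutation here, and its part in the results was not tested. The gene *eat-2* itself was not among the genes analysed per library. No source ties replicates to separate cohorts or days, so p-values measure the spread between these pools.

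In the methionine cycle, S-adenosylmethionine (SAM) synthetases (*sams-1*, *sams-3* and *sams-4* here) turn methionine into SAM, the main donor of methyl groups. After SAM has given up its methyl group, the hydrolase encoded by *ahcy-1* releases homocysteine, which *metr-1*, the vitamin B12-dependent methionine synthase, can return to methionine. Transsulfuration instead carries the sulfur of homocysteine to cysteine through cystathionine, which the cystathionine γ-lyases *cth-1* and *cth-2* cleave. The same lyases, and the mercaptopyruvate sulfurtransferases of the *mpst* family, can form H2S, while *cdo-1*, cysteine dioxygenase, removes cysteine by oxidation. In nematodes, *sams-1* is known for supplying SAM to the synthesis of phosphatidylcholine.

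Totals per library were 14769332 to 19199982 estimated counts in FW1256-exposed WT, 14842320 to 19170837 in *eat-2* mutants and 15319366 to 19020724 in unexposed WT. Levels are given as CPM, the counts of a library scaled to a common total, after TMM scaling between libraries. The 9 genes held between 80.2 (*mpst-7*) and 53449 (*ahcy-1*) estimated counts in a library, and the coefficient of variation within a group was 2.46% to 23.03% with a median of 9.37%. Per kilobase of the longest transcript, *ahcy-1* stood highest in unexposed WT (1657 ± 102 CPM per kb), followed by *sams-4* (255 ± 6.29), *cth-2* (227 ± 34.4), *cdo-1* (89.9 ± 8.005), *cth-1* (77.2 ± 16.4), *sams-1* (53.7 ± 3.18), *mpst-3* (41.4 ± 6.25), *sams-3* (26.3 ± 2.95) and *mpst-7* (4.73 ± 0.918, SD, n = 4 each). The places of *sams-3* and *mpst-3* are uncertain, because their values per library may be partial (given with each gene). In this order the means ± SD of *sams-4* and *cth-2* overlapped, and so did those of *cdo-1* and *cth-1*. With FW1256, *sams-1* stood above *cdo-1* (161 ± 12.1 against 134 ± 12.5 CPM per kb), whereas in *eat-2* mutants its mean ± SD overlapped with that of *cth-1* (94.5 ± 21.8 against 113 ± 8.96).

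Positions are those of the Ensembl release 115 annotation of WBcel235, the build that the authors used. The gene *sams-1* lies on chromosome X from 11965962 to 11969893, *sams-4* on chromosome IV from 5844061 to 5846369 and *sams-3* on chromosome IV from 5848657 to 5850843. The last pair are neighbouring copies, 2287 bases apart, whose proteins both have 404 residues, and reads that match both may be divided between them. The gene *ahcy-1* lies on chromosome I from 6836469 to 6838140, and *cdo-1* on chromosome X from 862267 to 863578. On chromosome V lie *cth-1* (16100680 to 16102750), *mpst-3* (14895647 to 14899019) and *mpst-7* (12955210 to 12961135), and *cth-2* lies on chromosome II (7056184 to 7057960). Exons on the opposite strand overlap *cdo-1* by 127 bases (F56F10.2), *mpst-7* by 20 bases (*eif-3.K*), *sams-3* by 18 bases (C06E7.4) and *cth-2* by 8 bases (ZK1127.3). Since the sources used here do not state whether strand was used, a share of their counts could come from these neighbours.

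Both the exposed animals and the *eat-2* mutants were tested against unexposed WT, and then against one another (edgeR quasi-likelihood test, called at a Benjamini-Hochberg adjusted p under 0.05). With FW1256, 6 of the 9 genes rose (*sams-1*, *cth-2*, *cdo-1*, *mpst-3*, *sams-4* and *ahcy-1*), none fell and 3 were not called (lower at an unadjusted p under 0.05 were 0 with edgeR, and 0 were called lower with DESeq2). Of all 3616 genes tested in this comparison, 50.2% were called, 25.5% as higher and 24.8% as lower. The 5272 genes analysed per library held only 3363 of the 19985 annotated protein-coding genes, and 1902 were pseudogenes. Shares of all genes tested therefore describe this subset and not the whole transcriptome. In *eat-2* mutants, 4 genes rose (*sams-1*, *cth-1*, *cth-2* and *cdo-1*), 3 fell (*sams-3*, *ahcy-1* and *sams-4*) and 2 were not called. Among the 3786 genes tested there, 44.2% were called, 21.8% as higher and 22.4% as lower. Against *eat-2* mutants, FW1256-exposed WT had 5 genes higher, 1 lower (*cth-1*) and 3 not called, and 69.3% of 3715 genes were called, 33.1% as higher and 36.2% as lower. The median log2 fold change of the 9 genes was 0.47 with FW1256, 0.21 in *eat-2* mutants and 0.32 between them, beside -0.00, 0.02 and -0.05 over all genes tested in these comparisons. Both comparisons with unexposed WT use the same 4 WT libraries, so their values are set side by side only. The levels in each library are drawn in the plot of the 9 genes by group, and the fold changes in the plot of the 3 comparisons.

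**Figure D1:**
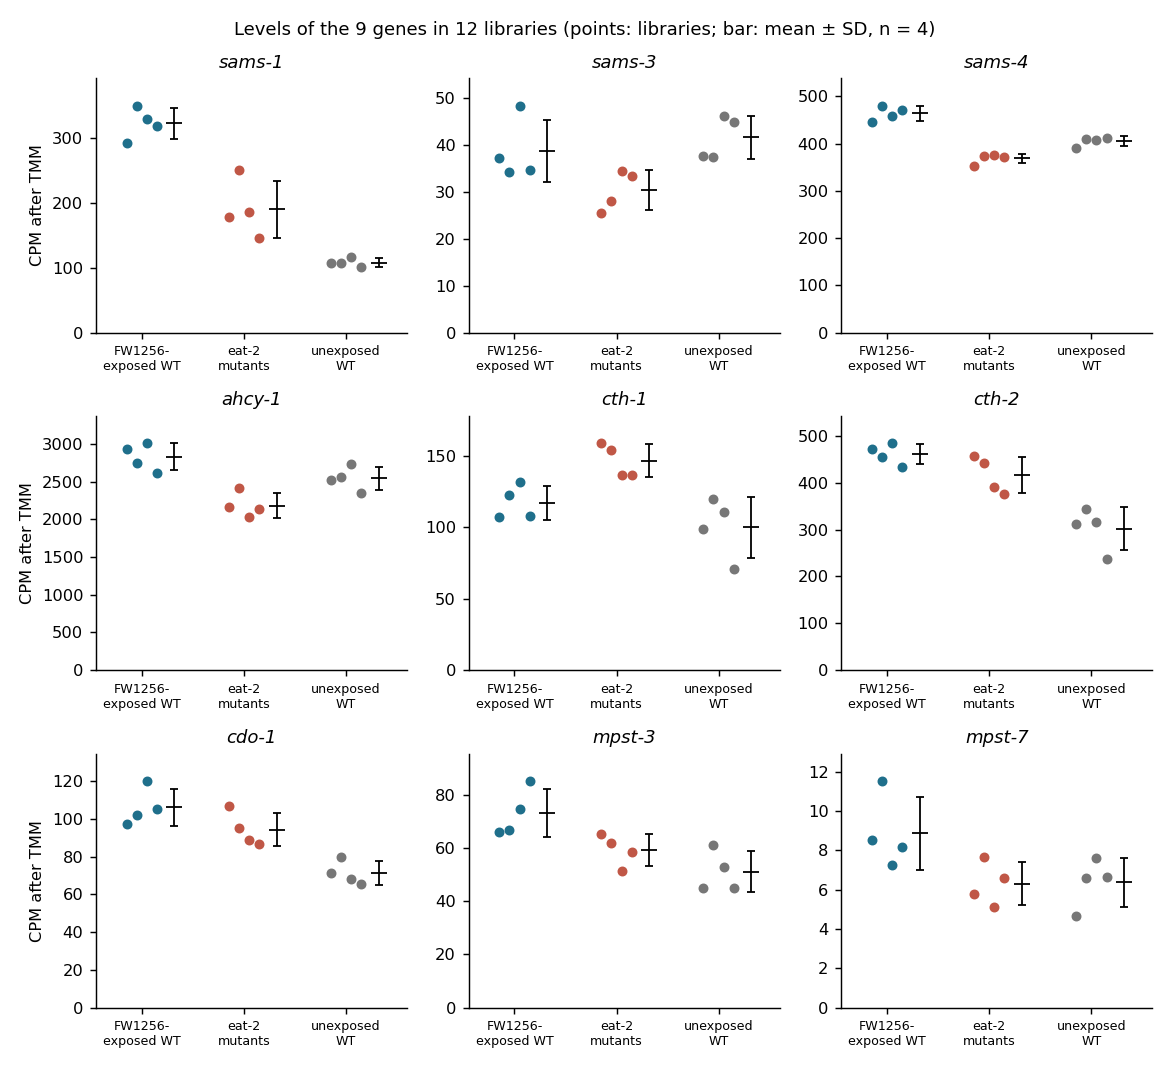
Levels of the 9 genes (vertical axes, CPM after TMM, each starting at 0) in FW1256-exposed WT, *eat-2* mutants and unexposed WT (horizontal axis). Points are libraries and the bars beside them the mean ± SD (n = 4). For *sams-1* the 3 groups do not overlap, with 292 to 349.9 CPM in FW1256-exposed WT, 146 to 250.2 CPM in *eat-2* mutants and 101 to 116 CPM in unexposed WT.

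**Figure D2:**
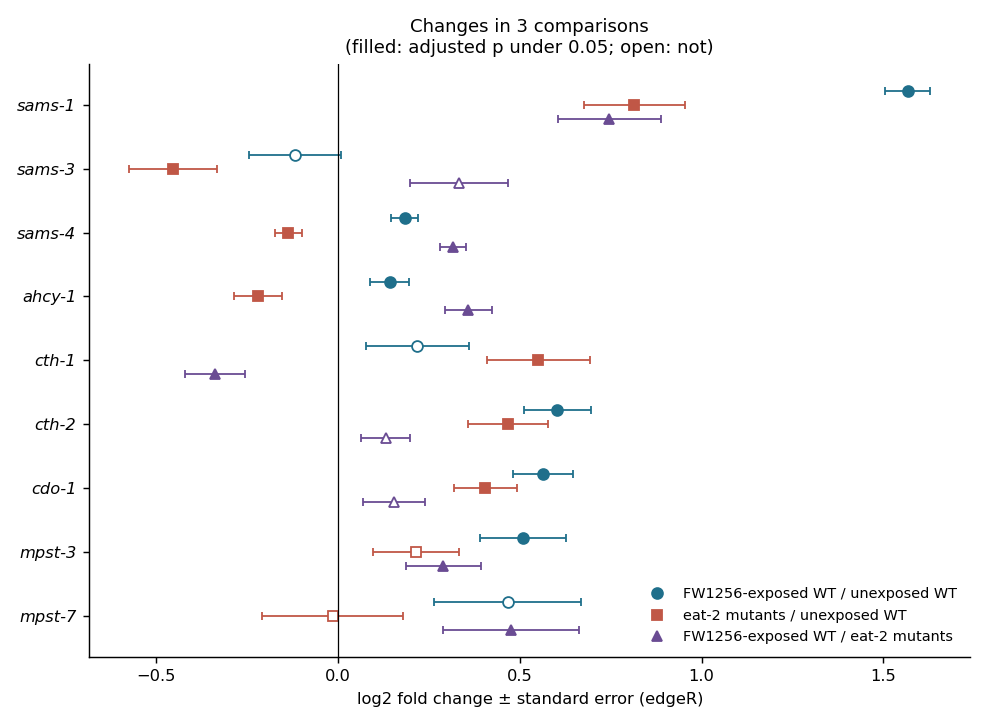
The log2 fold change ± standard error (horizontal axis) of each gene (vertical axis) in FW1256-exposed WT over unexposed WT (circles), *eat-2* mutants over unexposed WT (squares) and FW1256-exposed WT over *eat-2* mutants (triangles). Filled symbols have an adjusted p under 0.05. The value of *sams-1* with FW1256 (1.57) lies apart from all others, and *sams-4* and *ahcy-1* lie on opposite sides of 0 in the comparisons with unexposed WT.

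Of the SAM synthetases, *sams-1* showed the largest change of the 9 genes in each comparison. It had 292, 349.9, 329.8 and 318 CPM in FW1256-exposed WT, 178, 250.2, 185 and 146 CPM in *eat-2* mutants, and 108, 107, 116 and 101 CPM in unexposed WT. Every FW1256 library was thus above every *eat-2* library, and every *eat-2* library above every WT library. The rise was 2.96-fold with FW1256 (log2 fold change 1.57, SE 0.06, adjusted p = 4.68e-07 with edgeR, rank 4 by p among the genes tested) and 1.76-fold in *eat-2* mutants (0.82, SE 0.14, adjusted p = 0.00161 with edgeR). Against *eat-2* mutants, FW1256-exposed WT was 1.68-fold higher (0.75, SE 0.14, adjusted p = 0.00102 with edgeR). All 3 calls were kept without each library in turn, the FW1256 value then being 1.53 to 1.62. Among the 4 *eat-2* libraries the level of *sams-1* was spread more widely (coefficient of variation 23.03%) than in the other groups (7.52% with FW1256 and 5.91% in unexposed WT).

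In their sum, body wall muscle markers had the same order of groups as *sams-1*, and the group means of *cth-2*, *cdo-1* and *mpst-3* had this order too. The 8 of 10 listed markers in the files summed to 5605 to 6162 CPM in FW1256-exposed WT, 4112 to 5097 CPM in *eat-2* mutants and 3122 to 3443 CPM in unexposed WT, with none at 0. With FW1256, 7 of the 8 rose, and in *eat-2* mutants all 8 rose. FW1256-exposed WT was higher than *eat-2* mutants in 6 of the 8, with 2 not called (*act-4* at 0.06 and *hlh-1* at -0.08). This order was not particular to muscle. The 3 pharyngeal markers summed to 401 to 458 CPM in FW1256-exposed WT, 363 to 418 CPM in *eat-2* mutants and 256 to 326 CPM in unexposed WT. Whole animals were sequenced, so more cells of a tissue and more RNA per cell cannot be told apart, and the part of muscle in the results for these 4 genes was not tested.

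With FW1256 the differences of the other synthetases were smaller. The level of *sams-4* was 446, 481, 458 and 471 CPM in FW1256-exposed WT, 354, 374, 375 and 372 CPM in *eat-2* mutants, and 391, 411, 408 and 413 CPM in unexposed WT. The 3 groups did not overlap, with FW1256-exposed WT at the top and *eat-2* mutants at the bottom. The gene rose by 0.18 with FW1256 (log2, SE 0.04, adjusted p = 0.00277 with edgeR) and fell by 0.14 in *eat-2* mutants (log2, SE 0.04, adjusted p = 0.0159 with edgeR), and FW1256-exposed WT was higher than *eat-2* mutants by 0.32 (SE 0.03, adjusted p = 2.78e-05 with edgeR). The call in *eat-2* mutants was lost without *eat-2* replicate 1 (-0.11, adjusted p = 0.0876 with edgeR) and without WT replicate 2 (-0.12, adjusted p = 0.0656 with edgeR), and with scaling by library size alone (-0.12, adjusted p = 0.0520 with edgeR).

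The level of *sams-3* was 37.2, 34.3, 48.4 and 34.8 CPM in FW1256-exposed WT, 25.5, 28.1, 34.5 and 33.5 CPM in *eat-2* mutants, and 37.7, 37.5, 46.3 and 45.02 CPM in unexposed WT. All *eat-2* libraries were below all WT libraries, whereas FW1256 libraries overlapped both groups. The gene fell by 0.45 in *eat-2* mutants (log2, SE 0.12, adjusted p = 0.0137 with edgeR), a call kept without each library in turn. With FW1256 the value was -0.12 (SE 0.13, adjusted p = 0.453 with edgeR), and between FW1256-exposed WT and *eat-2* mutants it was 0.33 (SE 0.14, adjusted p = 0.0511 with edgeR). In the authors' table for FW1256 the mean normalized count of *sams-3* is 9.24% of that in their table for *eat-2* mutants (577 against 6247). This share is 77.8% for *mpst-3* and 98.7% to 101.6% for the other 7 genes, and it is under 50% for 640 of 3949 genes with a mean of at least 10 in the *eat-2* table. The estimated counts of *sams-3* per library were 429 to 809, near the lower of its means and far below the higher. Much of the signal in the *eat-2* table is thus missing from the values per library. They may cover only some of the transcripts of *sams-3*, and its level and results are uncertain.

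Downstream of SAM use, the changes of *ahcy-1* were small and opposite in the comparisons with unexposed WT. It had 2939, 2753, 3011 and 2617 CPM in FW1256-exposed WT, 2160.3, 2416, 2026 and 2133 CPM in *eat-2* mutants, and 2528, 2569, 2733 and 2352 CPM in unexposed WT. FW1256 libraries were all above *eat-2* libraries, and both groups overlapped with unexposed WT. The rise was 0.14 with FW1256 (log2, SE 0.05, adjusted p = 0.0483 with edgeR) and the fall 0.22 in *eat-2* mutants (-0.22, SE 0.07, adjusted p = 0.0224 with edgeR), while FW1256-exposed WT exceeded *eat-2* mutants by 0.36 (SE 0.06, adjusted p = 7.70e-04 with edgeR). The FW1256 call was kept in only 2 of 8 fits that left out 1 library (without FW1256 replicate 4 or WT replicate 3) and the *eat-2* call in only 3 of 8 (without *eat-2* replicate 2 or WT replicate 1 or 4), so both depended on which libraries entered. The difference between FW1256-exposed WT and *eat-2* mutants was called in all 8 (0.33 to 0.40).

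In their sum, germline and oocyte markers had the same order of groups as *sams-4* and *ahcy-1*. The 9 of 22 listed markers in the files summed to 17064 to 17806 CPM in FW1256-exposed WT, 11524 to 12376 CPM in *eat-2* mutants and 15032 to 16544 CPM in unexposed WT, with none at 0. In *eat-2* mutants all 9 fell. With FW1256, 3 of the 9 rose, none fell and 6 were not called (median log2 fold change 0.09). Of those not called, *mex-3* was at -0.18, so the rise with FW1256 was not shared by all markers. The part of the germline in the results for *sams-3*, *sams-4* and *ahcy-1* was not tested.

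Of the cystathionine γ-lyases, *cth-2* rose in both groups. It had 472, 456, 484 and 434 CPM in FW1256-exposed WT, 457, 443, 391 and 377 CPM in *eat-2* mutants, and 311, 343, 316 and 236 CPM in unexposed WT. Every library of either group was above every WT library. The rise was 1.52-fold with FW1256 (log2 fold change 0.60, SE 0.09, adjusted p = 6.02e-04 with edgeR) and 1.38-fold in *eat-2* mutants (0.47, SE 0.11, adjusted p = 0.00757 with edgeR), and both calls were kept without each library in turn. The difference of FW1256-exposed WT from *eat-2* mutants was 0.13 (SE 0.07, adjusted p = 0.107 with edgeR). It was called without *eat-2* replicate 1 (0.18, adjusted p = 0.0328 with edgeR).

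Its paralog *cth-1* was highest in *eat-2* mutants. It had 107, 123, 131 and 108 CPM in FW1256-exposed WT, 159, 154, 137 and 137 CPM in *eat-2* mutants, and 99.1, 119.5, 111 and 70.7 CPM in unexposed WT. The *eat-2* libraries were all above those of both other groups, which overlapped. The rise was 1.46-fold in *eat-2* mutants (log2 fold change 0.55, SE 0.14, adjusted p = 0.0114 with edgeR), and FW1256-exposed WT was lower than *eat-2* mutants (-0.34, SE 0.08, adjusted p = 0.00437 with edgeR). Both calls were kept without each library in turn. With FW1256 the value against unexposed WT was 0.22 (SE 0.14, adjusted p = 0.226 with edgeR). WT replicate 4 was the lowest WT library for both lyases, and without it the value of *cth-1* was 0.092 with FW1256 and 0.41 in *eat-2* mutants. It was also the lowest WT library for *sams-1*, *mpst-3*, *ahcy-1* and *cdo-1*, though not for *sams-3*, *sams-4* and *mpst-7*. Both comparisons with unexposed WT share this library.

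Of the mercaptopyruvate sulfurtransferases, *mpst-3* rose with FW1256. It had 66.0, 66.7, 74.8 and 85.2 CPM in FW1256-exposed WT, 65.3, 61.9, 51.2 and 58.4 CPM in *eat-2* mutants, and 45.1, 61.1, 53.0 and 44.9 CPM in unexposed WT. The FW1256 libraries were above those of both other groups, although the lowest was close to the highest *eat-2* library. The rise was 1.42-fold with FW1256 (log2 fold change 0.51, SE 0.12, adjusted p = 0.00549 with edgeR) and was called without each library in turn. In *eat-2* mutants the value was 0.21 (SE 0.12, adjusted p = 0.164 with edgeR), which was called without WT replicate 2 (0.32, adjusted p = 0.0361 with edgeR). FW1256-exposed WT was higher than *eat-2* mutants by 0.29 (SE 0.10, adjusted p = 0.0304 with edgeR), a call lost without *eat-2* replicate 3 or 4 or FW1256 replicate 3 or 4 (0.21 to 0.28, highest adjusted p = 0.0823 with edgeR). The authors' mean normalized count of *mpst-3* is 975 in their FW1256 table and 1254 in their *eat-2* table, so its values per library may also be partial, and its results carry that doubt.

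The lowest of the 9 genes was *mpst-7*, with 80.2 to 164 estimated counts in a library. It had 8.52, 11.5, 7.24 and 8.19 CPM in FW1256-exposed WT, 5.76, 7.67, 5.15 and 6.62 CPM in *eat-2* mutants, and 4.66, 6.58, 7.62 and 6.65 CPM in unexposed WT. All 3 groups overlapped. The value was 0.47 with FW1256 (SE 0.20, adjusted p = 0.0813 with edgeR) and -0.02 in *eat-2* mutants (SE 0.19, adjusted p = 0.958 with edgeR), where the sign changed between settings. The call of FW1256-exposed WT over *eat-2* mutants (0.47, SE 0.19, adjusted p = 0.0445 with edgeR) was kept in only 2 of the 8 fits that left out a library (without *eat-2* replicate 2 or FW1256 replicate 3).

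Cysteine dioxygenase, *cdo-1*, rose in both groups. It had 97.3, 102, 120.2 and 105 CPM in FW1256-exposed WT, 107, 95.03, 88.9 and 87.0 CPM in *eat-2* mutants, and 71.6, 80.004, 68.2 and 65.3 CPM in unexposed WT. Every library of either group was above the highest WT library. The rise was 1.48-fold with FW1256 (log2 fold change 0.56, SE 0.08, adjusted p = 4.58e-04 with edgeR) and 1.32-fold in *eat-2* mutants (0.41, SE 0.09, adjusted p = 0.00477 with edgeR), and both calls were kept without each library in turn. The difference of FW1256-exposed WT from *eat-2* mutants was 0.15 (SE 0.09, adjusted p = 0.132 with edgeR). It was called without *eat-2* replicate 1 (0.22, adjusted p = 0.0359 with edgeR).

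By the overlap of libraries alone, 5 of the 9 genes were fully above unexposed WT with FW1256 and none fully below, where 25.6% of all genes tested were fully above (48.1% in either direction). In *eat-2* mutants 4 were fully above and 2 (*sams-3* and *sams-4*) fully below, beside 20.9% and 22% of all genes tested (42.9% in either direction). Between FW1256-exposed WT and *eat-2* mutants 4 were fully above (*sams-1*, *sams-4*, *ahcy-1* and *mpst-3*) and *cth-1* fully below, beside 32.1% and 32.9% of all genes tested (65% in either direction).

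Ratios between genes within a library do not depend on the scaling between libraries. They were chosen after the levels had been seen and are given as a description. The ratio of *sams-1* to *sams-4* was 0.654, 0.728, 0.720 and 0.675 in FW1256-exposed WT, while *eat-2* mutants had ratios of 0.504, 0.668, 0.494 and 0.392 and unexposed WT 0.276, 0.261, 0.285 and 0.244. This ratio was thus higher in every library of both groups than in any of unexposed WT, with 1 *eat-2* library inside the range of FW1256-exposed WT. It leaves out *sams-3* and *sams-5*, so it is no share of all SAM synthetase reads. The ratio of *cth-2* to *cth-1* was 4.42, 3.71, 3.69 and 4.03 in FW1256-exposed WT, while *eat-2* mutants had ratios of 2.88, 2.87, 2.86 and 2.76 and unexposed WT 3.14, 2.87, 2.85 and 3.34. Here FW1256-exposed WT stood above both other groups. The ratio of *sams-1* to *ahcy-1* averaged 0.114 ± 0.0125 in FW1256-exposed WT, 0.0865 ± 0.0148 in *eat-2* mutants and 0.0424 ± 4.72e-04 in unexposed WT (SD, n = 4 each).

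**Figure D3:**
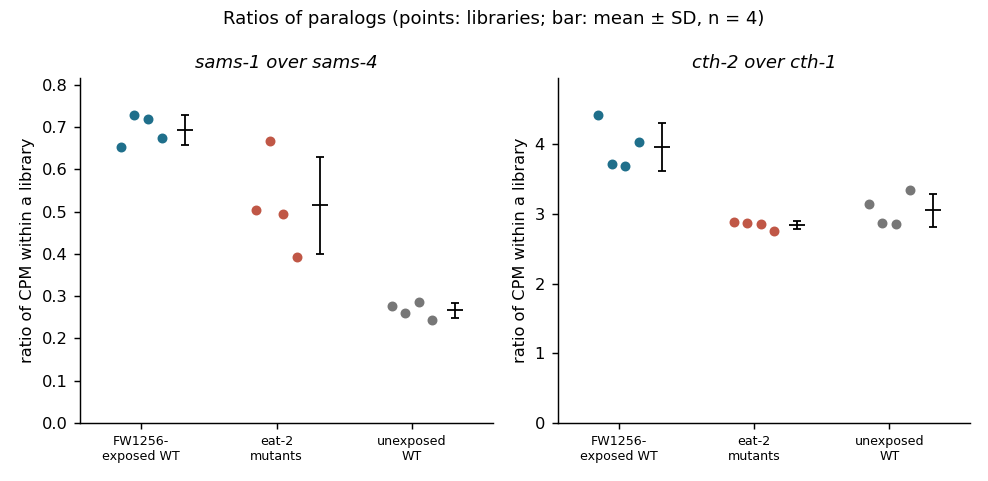
Ratio of CPM within a library (vertical axes, starting at 0) of *sams-1* to *sams-4* and of *cth-2* to *cth-1* in FW1256-exposed WT, *eat-2* mutants and unexposed WT (horizontal axis). Points are libraries and the bars beside them the mean ± SD (n = 4). The ratio of *sams-1* to *sams-4* averages 0.694 in FW1256-exposed WT, 0.515 in *eat-2* mutants and 0.266 in unexposed WT, and that of *cth-2* to *cth-1* 3.96 in FW1256-exposed WT, 2.84 in *eat-2* mutants and 3.05 in unexposed WT.

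Levels of the 9 genes over the 12 libraries were compared with those of 3008 other genes by Pearson's r of log2 CPM, as a description. These libraries share their groups, so any pair of genes that differ between groups in the same order has a high r. Closest to *sams-1* was *unc-15*, the muscle protein paramyosin (r = 0.990), which averaged 724 CPM in FW1256-exposed WT, 491 CPM in *eat-2* mutants and 335 CPM in unexposed WT. It was followed by Y71H10B.1 (0.985) and *clik-1* (0.982). Closest to *sams-4* were the homeobox gene *ceh-39* (0.984), the centriole duplication kinase *zyg-1* (0.977) and the germline RNA-binding protein *gld-1* (0.973). Thus 1 listed muscle marker was among the 3 genes closest to *sams-1* and 1 listed germline marker among those closest to *sams-4*. For *ahcy-1* the closest were *ttll-12* (0.954), C06A6.4 (0.943) and *atp-2*, a subunit of the mitochondrial ATP synthase (0.942), and for *sams-3* they were H27A22.1 (0.926), F53F10.2 (0.924) and *pap-1* (0.918). Closest to *cth-2* were W05B5.1 (0.962), F25B5.3 (0.951) and *oatr-1*, ornithine aminotransferase (0.945). Closest to *cdo-1* were the glycolytic enzyme *gpd-3* (0.940), *cth-2* itself (0.938) and *fbxb-84* (0.937). For *cth-1*, R12C12.9 (0.945), C06A8.8 (0.933) and F32A5.4 (0.917) were closest, and all r were under 0.90 for *mpst-3* (*eppl-1* 0.897, *glna-2* 0.881 and *glb-19* 0.880) and *mpst-7* (F54D10.7 0.886, *snx-6* 0.844 and *trmt-10C.2* 0.843).

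Among the 9 genes themselves, r was highest between *cth-2* and *cdo-1* (0.938), followed by *sams-1* with *cdo-1* (0.879) and *cth-2* (0.869). The genes *sams-4* and *ahcy-1* had r = 0.80 with each other, and *cth-1* had its lowest r with *sams-3* (-0.64).

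The other genes of the same pathways were taken from lists. Their values per library were not checked gene by gene for completeness, and some may be partial. Outside the members, 124 genes were listed. With FW1256, 40 of them were tested, of which 18 rose, 7 fell and 15 were not called (median 0.11). In *eat-2* mutants 40 were tested, of which 15 rose, 4 fell and 21 were not called (median 0.11). Between FW1256-exposed WT and *eat-2* mutants, 16 were higher, 12 lower and 13 not called of 41 tested (median 0.08). Of all genes tested, 50.2% were called with FW1256 (25.5% higher, 24.8% lower) and 44.2% in *eat-2* mutants (21.8% higher, 22.4% lower). Between these groups 69.3% were called (33.1% higher, 36.2% lower). The counts of each list below stand beside the same shares, and many calls are common to genes outside the lists.

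Genes of vitamin B12 use and propionate breakdown rose with FW1256 in 10 of 11 tested (of 16 listed), with a median of 0.64. Vitamin B12 serves methionine synthase and the canonical breakdown of propionate, and nematodes that lack it use an alternative route, the propionate shunt. The nuclear receptor *nhr-114*, known for activating methionine cycle genes when the cycle runs slowly, was at 169.8 to 206 CPM in FW1256-exposed WT, 54.4 to 97.9 CPM in *eat-2* mutants and 33.8 to 57.02 CPM in unexposed WT. It rose by 2.08 with FW1256 (log2, SE 0.14, adjusted p = 7.27e-06 with edgeR) and by 0.63 in *eat-2* mutants (SE 0.21, adjusted p = 0.0362 with edgeR, called in 9 of 14 other settings and at 0.39 without *eat-2* replicate 2). The shunt enzymes *hphd-1* (1.23, SE 0.14), *hach-1* (0.91, SE 0.07) and *ech-6* (0.89, SE 0.08) rose too, and so did *acdh-1* (1.46, SE 0.20), the first enzyme of the shunt, which was named after its values had been seen. In *eat-2* mutants the list had 4 higher, 1 lower and 6 not called (median 0.11). There *alh-8* (0.37, SE 0.06), the receptor *nhr-68* (0.75, SE 0.18) and *pccb-1* (0.11, SE 0.04, called in only 5 of 14 other settings) rose and *mtrr-1*, methionine synthase reductase, fell by 0.26 (SE 0.05), whereas *hphd-1*, *hach-1* and *ech-6* were at 0.23, 0.06 and 0.09 and not called. FW1256-exposed WT exceeded *eat-2* mutants in 7 of 11 (median 0.70), including *hach-1* (0.84, SE 0.05), *hphd-1* (0.99, SE 0.06), *mtrr-1* (0.43, SE 0.03) and *ech-6* (0.79, SE 0.08).

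Of the folate cycle, which supplies the methyl group for methionine, 4 of 13 listed genes were tested. With FW1256, the glycine cleavage genes *gldc-1* (0.91, SE 0.21) and *gcst-1* (0.47, SE 0.04) and the serine hydroxymethyltransferase *mel-32* (0.46, SE 0.06) rose, with a median of 0.47 over the 4. The reductase *mthf-1*, which makes the folate that methionine synthase uses, was at -0.03 (SE 0.04) and not called. In *eat-2* mutants *gldc-1* (0.52, SE 0.13) and *mel-32* (0.18, SE 0.06, called in only 4 of 14 other settings) rose (median 0.15), and FW1256-exposed WT was higher in *gcst-1* (0.33, SE 0.05) and *mel-32* (0.28, SE 0.07, median 0.31).

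**Figure D4:**
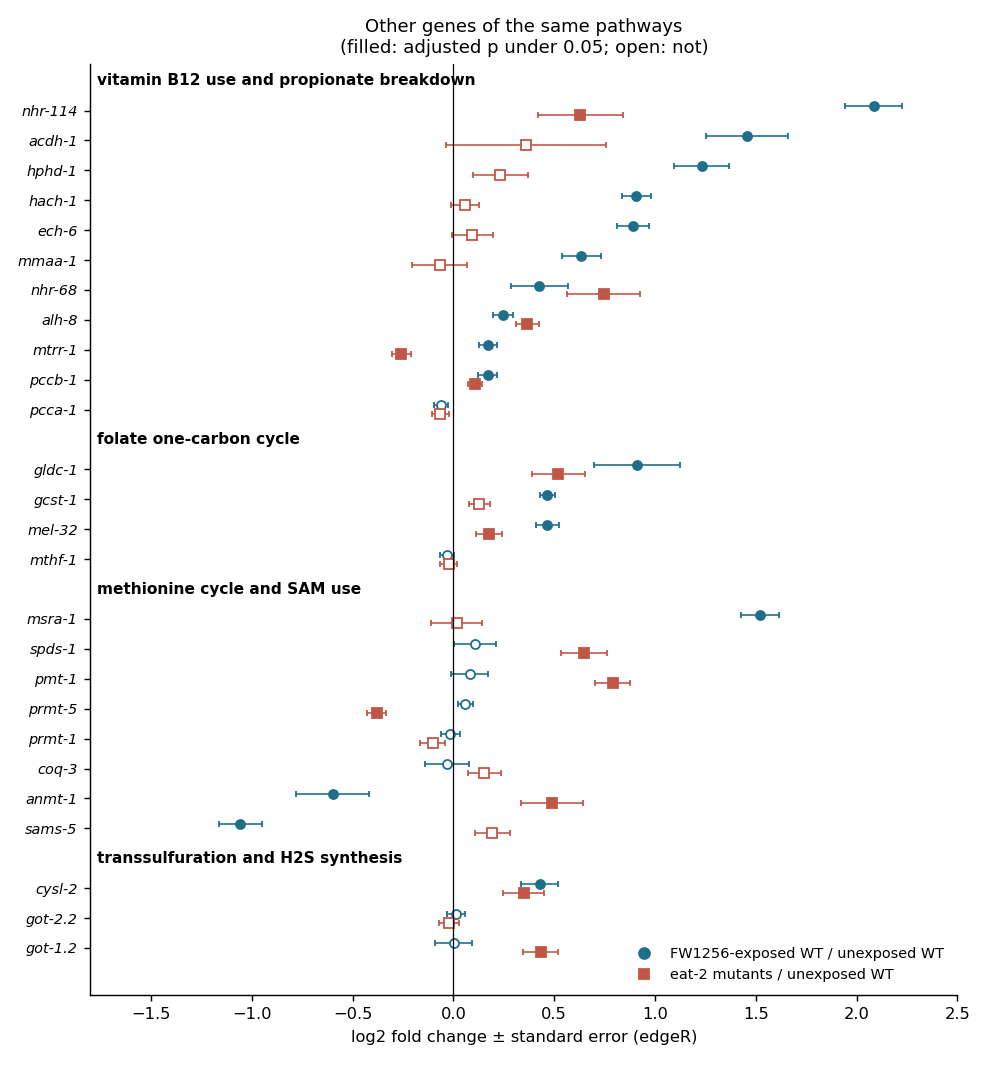
The log2 fold change ± standard error (horizontal axis) in FW1256-exposed WT over unexposed WT (circles) and *eat-2* mutants over unexposed WT (squares) of the other tested genes of 4 pathway lists (vertical axis), each gene once and ordered by its FW1256 value. Filled symbols have an adjusted p under 0.05. In the list at the top, of vitamin B12 use and propionate breakdown, *nhr-114* lies at 2.08 with FW1256 and 0.63 in *eat-2* mutants.

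Of the methionine cycle and SAM use, 13 of 28 listed genes were tested, the 4 members among them. With FW1256, 5 rose, 2 fell and 6 were not called (median 0.08), and in *eat-2* mutants 4 rose, 5 fell and 4 were not called (median 0.02). The methionine sulfoxide reductase *msra-1*, which returns oxidized methionine to methionine, was at 194 to 253 CPM in FW1256-exposed WT, 61.7 to 94.3 CPM in *eat-2* mutants and 66.6 to 78.5 CPM in unexposed WT. It rose by 1.52 with FW1256 (log2, SE 0.09, adjusted p = 4.61e-06 with edgeR) and was at 0.02 in *eat-2* mutants (SE 0.13, not called). A further SAM synthetase gene, *sams-5*, went the other way with 20.3 to 25.8 CPM in FW1256-exposed WT, 51.4 to 56.7 CPM in *eat-2* mutants and 42.2 to 52.8 CPM in unexposed WT. It fell by 1.06 with FW1256 (log2, SE 0.11, adjusted p = 6.03e-05 with edgeR) and was 0.19 in *eat-2* mutants (SE 0.09, not called). Of the genes that use SAM or its products, in *eat-2* mutants the phosphoethanolamine methyltransferase *pmt-1* (0.79, SE 0.09) and the spermidine synthase *spds-1* (0.65, SE 0.12) rose and the arginine methyltransferase *prmt-5* fell by 0.38 (SE 0.05), whereas *prmt-1* (-0.10) and *coq-3* (0.15), also methyltransferases, were not called. With FW1256 *pmt-1*, *spds-1*, *prmt-5*, *prmt-1* and *coq-3* were at 0.08, 0.11, 0.06, -0.02 and -0.03 and not called. The methyltransferase gene *anmt-1*, named after its values had been seen, had 7.97 to 11.02 CPM in FW1256-exposed WT, 17.3 to 21.4 CPM in *eat-2* mutants and 10.1 to 16.8 CPM in unexposed WT. It fell with FW1256 (-0.60, SE 0.18, adjusted p = 0.0206 with edgeR) and rose in *eat-2* mutants (0.49, SE 0.15, adjusted p = 0.0279 with edgeR), and was lower with FW1256 than in *eat-2* mutants (-1.09, SE 0.13). The FW1256 call was lost without FW1256 replicate 1 or 3 or WT replicate 1, and the *eat-2* call without *eat-2* replicate 1 or 3 or WT replicate 3. Between FW1256-exposed WT and *eat-2* mutants 6 were higher and 4 lower (median 0.32), with *prmt-5* (0.44, SE 0.04) higher and *sams-5* (-1.25, SE 0.08) and *pmt-1* (-0.71, SE 0.06) lower.

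Of transsulfuration and H2S synthesis, 7 of 20 listed genes were tested, again with 4 members among them. With FW1256, 3 rose and 4 were not called (median 0.43), in *eat-2* mutants 4 rose and 3 were not called (median 0.35), and between the 2 groups 2 were higher and 2 lower with FW1256 (median 0.08). Besides the members, *cysl-2*, a cysteine synthase family enzyme that is a known target of the hypoxia factor HIF-1, had 174 to 183 CPM in FW1256-exposed WT, 152 to 186 CPM in *eat-2* mutants and 108 to 146 CPM in unexposed WT. It rose in both groups (0.43, SE 0.09 with FW1256 and 0.35, SE 0.10 in *eat-2* mutants). The aspartate aminotransferase *got-1.2* rose in *eat-2* mutants (0.43, SE 0.09) and was at 0.00 with FW1256 (SE 0.09, not called), so FW1256-exposed WT was lower (-0.44, SE 0.05).

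Of the list of cysteine and H2S oxidation and molybdenum cofactor genes, only *cdo-1* and *nit-1* were tested of 15 listed genes. The H2S oxidation genes *sqrd-1* and *ethe-1* were not among the genes analysed per library, so H2S oxidation was not covered. The nitrilase *nit-1* rose by 0.91 with FW1256 (log2, SE 0.13, adjusted p = 3.57e-04 with edgeR) and by 0.31 in *eat-2* mutants (SE 0.11, adjusted p = 0.0405 with edgeR, called in 7 of 14 other settings), and FW1256-exposed WT was higher than *eat-2* mutants (0.60, SE 0.09). The median of *cdo-1* and *nit-1* was 0.74 with FW1256, 0.36 in *eat-2* mutants and 0.38 between the groups. Of the response to H2S and hypoxia, 6 of 17 listed genes were tested. With FW1256, *cysl-2* rose and *ftn-1* (-5.14, SE 0.29), *ftn-2* (-0.42, SE 0.05) and *nhr-49* (-0.20, SE 0.05) fell (median -0.12). The first pair are ferritins, which store iron, and *nhr-49* is a nuclear receptor of fat metabolism. In *eat-2* mutants *cysl-2* rose and *ftn-1* fell (-1.75, SE 0.20), with 4 not called (median -0.04). FW1256-exposed WT was lower than *eat-2* mutants in *ftn-1* (-3.39, SE 0.24), *ftn-2* (-0.52, SE 0.05) and *nhr-49* (-0.15, SE 0.04), with 3 not called (median -0.04).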

How the data were processed

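RNAseq of 12 samples was analysed, 4 each of FW1256-exposed WT, unexposed *eat-2* mutants and unexposed WT. The authors mapped reads to the WBcel235 transcriptome with kallisto (0.46.0) and deposited estimated counts per gene, summarized as length-scaled TPM with tximport and not normalized between libraries. These were rounded to whole numbers. The authors' means of normalized counts (a signal, baseMean) in their deposited comparison tables were used only to check completeness. By gene, this was done for the members alone. The other named genes and the markers were not checked singly, and values of some may be partial. The tables' fold changes and p-values were not used. CPM are relative to the 5272 genes in the files, so they exceed CPM over all genes.

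Each pair of groups was fitted on its 8 libraries in edgeR (version 4.0.16, R 4.3.3) after TMM scaling and its default filter on low counts (quasi-likelihood test), with Benjamini-Hochberg adjustment over all genes tested. DESeq2 1.42.0 was an alternative, beside other scalings, no filter, 1 joint fit, a replicate block and each library left out. FW1256 replicate 4, which the study's heatmap does not show, was kept. Replicates differed by more than sampling noise (chi-square per gene 10.9 to 45.1 over 18 pairs). Dixon's criterion (ratio over 0.829) marked no value of the 9 genes in 27 groups of 4. With 4 values it can miss one that stands apart. WT replicate 4, for example, was at 70.7 CPM for *cth-1*, beside 99.1 to 119.5 CPM in the other WT libraries. Tests were checked on simulated counts. Members, gene lists and markers were chosen with earlier results of these data known. From each pathway list, at most 4 called genes per comparison were named, by adjusted p, and for each of the 9 genes the 3 with the highest r. Outside this rule, *acdh-1*, *anmt-1* and *nhr-114* were added by name. Lengths and positions came from Ensembl release 115.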

Additional observations from a re-analysis of the deposited data

How the results depend on the processing

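Each of the 27 values (9 genes in 3 comparisons) was recomputed under 6 other settings and without each library. The calls of *sams-1*, of *cth-2*, *cdo-1*, *mpst-3* and *sams-4* with FW1256, and of *cth-1*, *cth-2*, *cdo-1* and *sams-3* in *eat-2* mutants were kept in all of them, and so were those of *sams-4*, *ahcy-1* and *cth-1* between FW1256-exposed WT and *eat-2* mutants. The FW1256 call of *ahcy-1* was lost with DESeq2's size factors (0.14), library size alone (0.084), no filter (0.16) and 1 fit over all 12 libraries (0.15), and without 1 library its value was 0.11 to 0.18. The *eat-2* call of *sams-4* was lost with library size alone (-0.12, and -0.16 to -0.11 without 1 library), and that of *ahcy-1* was lost only when libraries were left out (-0.29 to -0.19). For *mpst-7* in *eat-2* mutants the sign changed with library size alone (0.0040) and without 1 library (-0.14 to 0.079), and for *mpst-3* in *eat-2* mutants leaving out libraries gave 0.16 to 0.32.

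Between FW1256-exposed WT and *eat-2* mutants, *cth-2* was called with DESeq2 (0.15) and with its size factors (0.15), and without 1 library it was at 0.084 to 0.18. The calls of *mpst-3* (0.22) and *mpst-7* (0.40) were lost with library size alone, and their values without 1 library were 0.21 to 0.34 and 0.33 to 0.57. For *sams-3* a call was gained with DESeq2 (0.35), its size factors (0.35) and 1 fit over all 12 libraries (0.35), with 0.21 to 0.40 without 1 library, and for *cdo-1* these were 0.094 to 0.22. The cause was not tested in any of these cases.

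Replicate numbers were not taken to pair the samples, since not every same-numbered pair correlated at over 0.1 in any comparison. Deviations of same-numbered samples from their group means correlated at -0.03 to 0.21 between FW1256-exposed WT and unexposed WT, 0.01 to 0.33 between *eat-2* mutants and unexposed WT, and 0.01 to 0.14 between FW1256-exposed WT and *eat-2* mutants, beside -0.23 to 0.28, -0.31 to 0.06 and -0.16 to 0.11 for differently numbered samples. Between *eat-2* mutants and unexposed WT, pairs 2 (0.33) and 4 (0.26) were above all differently numbered ones, and pairs 1 and 3 were at 0.01 and 0.02. With the replicate block, 1767, 1821 and 2593 genes were called in these comparisons, beside 1817, 1674 and 2575 without it. Under the block the call of *mpst-3* between FW1256-exposed WT and *eat-2* mutants was lost (0.29, adjusted p = 0.0535 with edgeR) and one of *sams-3* was gained (0.33, adjusted p = 0.0181 with edgeR), and no other call of the 9 genes changed. With library size alone 691 genes were called higher and 1055 lower with FW1256, beside 922 and 895 after TMM, and mean *sams-4* in FW1256-exposed WT was 447 CPM.

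Of the other pathway genes named, 19 of 20 kept their FW1256 call in all 14 alternatives (not *anmt-1*), 12 of 19 their *eat-2* call (not *anmt-1*, *gpx-1*, *gsr-1*, *mel-32*, *nhr-114*, *nit-1* and *pccb-1*) and 20 of 24 the call between the groups (not *acdh-1*, *ckb-2*, *gst-1* and *pod-2*). None changed sign. Counting error limits *mpst-7* most. In simulated counts, 77 (FW1256), 67 (*eat-2* mutants) and 78 (between them) of 100 genes changed 1.5-fold were recovered. Far fewer genes were changed there than were called in these data, which alters the adjusted p. These rates therefore need not hold for the tests here, in which smaller changes can be missed.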

Other observations

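Of glutathione and thioredoxin, which draw on cysteine, 5 of 21 listed genes were tested. With FW1256, the glutathione peroxidase *gpx-2* rose (log2 fold change 0.33, SE 0.06) and the mitochondrial thioredoxin *trx-2* fell (-0.24, SE 0.05), with 3 not called (median 0.07). In *eat-2* mutants another glutathione peroxidase, *gpx-1*, rose (0.32, SE 0.10) and the glutathione reductase *gsr-1* fell (-0.14, SE 0.04), with 3 not called (median -0.09). Both *eat-2* calls were lost in 3 of 14 other settings. FW1256-exposed WT was higher than *eat-2* mutants in *gsr-1* (0.26, SE 0.04), *gpx-2* (0.28, SE 0.07) and *gst-1* (0.16, SE 0.06) and lower in *gpx-1* (-0.26, SE 0.08, median 0.16).

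Of lipid genes tied to SAM levels, 3 of 15 listed were tested in the comparisons with unexposed WT. The choline kinase *ckb-2*, of phosphatidylcholine synthesis, had 33.4 to 38.5 CPM in FW1256-exposed WT, 28.2 to 32.6 CPM in *eat-2* mutants and 23.5 to 24.9 CPM in unexposed WT, and rose in both groups (0.56, SE 0.07 with FW1256 and 0.32, SE 0.08 in *eat-2* mutants). The stearoyl-CoA desaturase *fat-6* fell with FW1256 (-0.64, SE 0.11) and was at 0.11 in *eat-2* mutants (SE 0.11, not called). The acetyl-CoA carboxylase *pod-2* rose in *eat-2* mutants (0.21, SE 0.05) and was at 0.06 with FW1256 (SE 0.04, not called). The list's median was 0.06 with FW1256 and 0.21 in *eat-2* mutants. Between FW1256-exposed WT and *eat-2* mutants 4 were tested, with *ckb-2* higher (0.24, SE 0.07), *fat-6* (-0.75, SE 0.06) and *pod-2* (-0.15, SE 0.05) lower and a median of 0.02.

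Of the other marker lists, the 3 intestinal markers in the files summed to 27263 to 31615 CPM in FW1256-exposed WT, 33750 to 38274 CPM in *eat-2* mutants and 27406 to 30278 CPM in unexposed WT. Most of this sum was *vit-2* (mean of 26539 CPM in unexposed WT). With FW1256 *vit-2* was not called, while *act-5* (log2 fold change 0.69) and *asp-1* (0.35) rose. In *eat-2* mutants all 3 rose. The 5 neuronal markers summed to 164 to 188 CPM in FW1256-exposed WT, 196 to 219 CPM in *eat-2* mutants and 134 to 143 CPM in unexposed WT. The 3 pharyngeal markers summed to 401 to 458 CPM in FW1256-exposed WT, 363 to 418 CPM in *eat-2* mutants and 256 to 326 CPM in unexposed WT. They did not move together between FW1256-exposed WT and *eat-2* mutants, where *pqn-70* was higher (0.37), *tni-4* lower (-0.22) and *myo-1* not called (-0.10). The 3 embryonic markers summed to 591 to 638 CPM in FW1256-exposed WT, 443 to 473 CPM in *eat-2* mutants and 482 to 551 CPM in unexposed WT. Most of this sum was *pal-1* (mean of 524 CPM in FW1256-exposed WT). The others, *hlh-1* and *lin-26*, were also in the muscle and hypodermis lists, so these sums are not independent. Of hypodermis 4 markers were measured, with sums of 86.1 to 103 CPM in FW1256-exposed WT, 49.7 to 105 CPM in *eat-2* mutants and 73.0 to 225 CPM in unexposed WT. The 1 sperm marker was at 9.01 to 18.2 CPM in FW1256-exposed WT, 5.28 to 8.24 CPM in *eat-2* mutants and 5.07 to 14.9 CPM in unexposed WT. Only 1 neuronal marker was at 0 in every library. Their part in the results for the 9 genes was not tested.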
